A study of Mus musculus with 6 samples.

Results

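The genes described here encode the enzymes and transporters that take glucose and glycogen to lactate, in their skeletal muscle isoforms and in their general ones. They are the 33 genes of a hand-written list of glycolysis members, found by symbol among the 23951 genes of the deposited table. All 33 were in the table and all 33 were tested, as were 17021 genes in all, since their mean reached 0.1 FPKM (fragments per 1000000 mapped, divided by transcript length in kilobases). Whole skin of 3 control mice and 3 JunBΔep mice was sequenced, and the comparison asks which transcripts differ between lesional skin of the mutant and skin of its littermates. Both groups are C57Bl/6 mice of 6 to 7 months by the labels. Controls carry the JunB +/+ genotype. JunBΔep mice ("JunB dep" in the labels) carry floxed JunB alleles and a Cre driven by the keratin 5 promoter, so that the deletion is limited to cells that express keratin 5, and all other cells of the skin keep the gene. Mice are named by group and replicate number (0, 1 or 2) as the labels give them.

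Glycolysis splits glucose into pyruvate in the cytosol, and lactate dehydrogenase turns pyruvate into lactate, which regenerates the NAD+ that the pathway needs. Several steps are run by isozymes from separate genes. Skeletal muscle uses its own phosphofructokinase, phosphoglycerate mutase, enolase and glycogen phosphorylase, together with an insulin-responsive glucose transporter, while most other cells, keratinocytes and leucocytes among them, use the liver, brain or general forms. Mouse skin lies on a thin sheet of skeletal muscle, the panniculus carnosus, so whole skin can hold both kinds of transcript. The members were therefore read in 3 classes. The first holds 5 muscle isoforms (Pfkm, Pgam2, Eno3, Pygm and Slc2a4), the second 5 genes that are rich in muscle but widely expressed (Hk2, Aldoa, Ldha, Slc16a3 and Pfkfb1), and the third 23 general and other-tissue isoforms.

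The tissue label was borne out by keratinocyte transcripts, since the 9 keratinocyte markers summed to between 8014 and 13650 FPKM in every mouse, although Krt14 was listed at 0 in the library labelled JunBΔep 0. The 20 skeletal muscle markers summed to 25990 to 35720 FPKM in control skin and to 2435 to 5847 FPKM in JunBΔep skin. None of their 4 defining genes (Acta1, Ckm, Mylpf and Tnnt3) was at 0 in any mouse. The targeted gene, Junb, stood at 59.3, 72.4 and 56.9 FPKM in control skin 0, 1 and 2, and at 42.8 and 28.0 FPKM in JunBΔep 1 and 2. It reached 129.6 FPKM in the library labelled JunBΔep 0, above every control. Since cells that do not express keratin 5 keep the gene, its level in whole skin does not test that label. That library also stood apart in other ways. Its 9 leucocyte markers summed to 913.5 FPKM, above the 86.8 to 436.6 FPKM of the other mice, and its 8 adipocyte markers summed to 79.6 FPKM, below the 1939 to 15260 FPKM of the others. Results are therefore given with and without it. Control 0 held 7 liver markers that summed to 1597 FPKM, against 0.605 to 37.4 FPKM in the other mice, and 5 erythroid markers that summed to 1785 FPKM, against 43.2 to 482.3 FPKM.

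Of the 5 muscle isoforms, 3 were called lower in JunBΔep skin, while none of the 23 general isoforms was called in either direction. Of the 33 members, 3 had an adjusted p below 0.05 and all 3 were muscle isoforms that fell (Pfkm, Pgam2 and Eno3), where 1.38% of all genes tested were called lower. All 3 calls were lost with a block on the number series of the sample names and in most fits that left out 1 mouse, with values given beside the single genes. No member was called higher (0.0% of all genes), and none had an unadjusted p below 0.05 in that direction either, which 1.43% of all genes had. In the lower direction 7 members had an unadjusted p below 0.05, where 6.13% of all genes did. The median log2 fold change was -3.09 over the 5 muscle isoforms, -0.52 over the 5 muscle-rich genes, 0.15 over the 23 general isoforms and 0.03 over all genes tested. All 5 muscle isoforms and all 5 muscle-rich genes had a negative value, against 9 of the 23 general isoforms. Values of the 2 groups of mice did not overlap for 7 members that were lower in every JunBΔep mouse (Pfkm, Pgam2, Eno3, Pygm, Aldoa, Ldhb and Pgm2), where 9.16% of all genes did so, and for 1 that was higher in each of them (Pgam1), where 5.62% did so. In bulk tissue, fewer cells of a type and less RNA per cell cannot be told apart. Fold changes throughout are on the log2(FPKM + 0.5) scale, JunBΔep minus control, and adjusted p values are from limma with Benjamini-Hochberg adjustment over all genes tested.

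**Figure D1:**
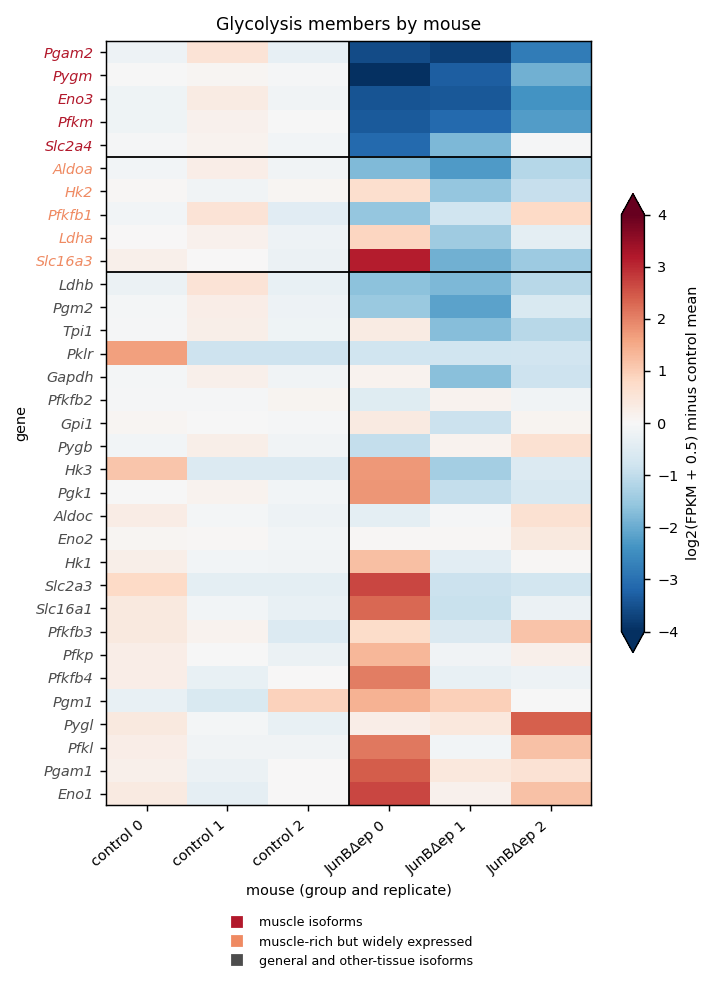
Heatmap of log2(FPKM + 0.5) minus the control mean for the 33 members (rows, grouped by class) in each of the 6 mice (columns), on a colour scale from -4 to 4. The 5 muscle isoforms are low in the JunBΔep columns except for Slc2a4 in JunBΔep 2, and 16 of the 33 members, 13 of them general isoforms, are highest in the library labelled JunBΔep 0, as are 5057 of the 17021 genes tested.

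Pgam2, the muscle form of phosphoglycerate mutase, which moves the phosphate group of 3-phosphoglycerate, had the largest fall. It measured 464.7, 781.9 and 425.9 FPKM in control skin and 44.9, 39.4 and 77.6 FPKM in JunBΔep skin. The highest JunBΔep mouse lay far under the lowest control, and the log2 fold change was -3.37 (SE 0.35, adjusted p = 0.0191). Eno3, the beta enolase of muscle, stood at 766.2, 1083 and 787.1 FPKM against 78.7, 81.6 and 163.2 FPKM. JunBΔep 2 kept the most of it, and the groups were again well apart (log2 fold change -3.09, SE 0.34, adjusted p = 0.0209). Pfkm, the muscle subunit of phosphofructokinase, the committed and most tightly regulated step, gave 293.6, 374.6 and 325.3 FPKM in control skin. In JunBΔep mice it gave 31.4, 37.7 and 69.0 FPKM, with no overlap (log2 fold change -2.91, SE 0.32, adjusted p = 0.0201).

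The remaining muscle isoforms varied more among the mutants. Pygm, the muscle glycogen phosphorylase that releases glucose 1-phosphate from glycogen, measured 486.7, 522.9 and 476.5 FPKM in control skin and 25.9, 49.9 and 129.2 FPKM in JunBΔep skin. The controls lay close together and the JunBΔep mice spread over several fold, and the difference of -3.15 (SE 0.56) did not pass the test (adjusted p = 0.0740). It was -2.62 without the library labelled JunBΔep 0 (adjusted p = 0.0923). Of the 6 fits that left out 1 mouse, only that without JunBΔep 2, the highest of the mutants, called it (-3.77, adjusted p = 0.0127), and the adjusted p reached 0.294 without JunBΔep 1. Slc2a4, which encodes the insulin-responsive glucose transporter GLUT4 of muscle and fat, measured 54.6, 62.6 and 51.7 FPKM in control skin. It stood at 6.10 and 15.8 FPKM in JunBΔep 0 and 1, but at 54.1 FPKM in JunBΔep 2, which is inside the control range, and the difference of -1.65 (SE 0.73) did not pass either (adjusted p = 0.689) and was -0.93 without the library labelled JunBΔep 0. The adipocyte markers moved with that pattern, with sums of 79.6, 3017 and 15260 FPKM in JunBΔep 0, 1 and 2 against 1939 to 5931 FPKM in control skin, and their part in it was not tested.

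In a ranking of all 17021 genes from the lowest log2 fold change upward, Pgam2 stood at place 32, Pygm at 55, Eno3 at 65, Pfkm at 93 and Slc2a4 at 481. The calls of Pfkm, Pgam2 and Eno3 were lost when any 1 control or JunBΔep 1 was left out. The highest of their 3 adjusted p values was 0.121, 0.120 and 0.112 without control 0, 1 and 2, and 0.0912 without JunBΔep 1. No gene in the table was called in any of these 4 fits, so the lost calls do not single out a mouse. Over the 4 fits the log2 fold change was -2.99 to -2.81 for Pfkm, -3.53 to -3.095 for Pgam2 and -3.18 to -2.93 for Eno3. Without the library labelled JunBΔep 0, their log2 fold changes were -2.68, -3.27 and -2.90, with adjusted p of 0.0427, 0.0530 and 0.0534, so that Pfkm alone was still called, beside 0.739% of all genes that were called lower and 0.0591% that were called higher, no member among the latter. By their numbers in the sample names the mice fall in 2 series, of which the first holds controls 0 and 1 and the library labelled JunBΔep 0, and the second control 2 and JunBΔep 1 and 2. Within the first and the second series, the difference between JunBΔep and control was -3.38 and -2.66 for Pfkm, -3.73 and -2.93 for Pgam2, -3.53 and -2.76 for Eno3 and -4.26 and -2.56 for Pygm. With the series as a block in the fit no gene was called, and the adjusted p of Pfkm, Pgam2 and Eno3 was 0.0661 to 0.0667.

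On mm9 with the GENCODE vM1 gene models, Pfkm lies at chr15:97923020-97962878 on the + strand, Pgam2 at chr11:5701643-5703736 on the - strand, Eno3 at chr11:70470704-70476015 on the + strand, Pygm at chr19:6384399-6398459 on the + strand and Slc2a4 at chr11:69756045-69761690 on the - strand. None of the 5 has a near copy elsewhere in the genome (at least 90% identity over at least 50% of the transcript).

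The 250 bases before the start site are shown for 5 members that have a single window in the table, 4 whose values were lower in every JunBΔep mouse and Pgam1, which was higher in each. The sequences are RefSeq's, on build GRCm38.p6, which is not the build of the deposited values, and are written 5′ to 3′ on the gene's own strand. Capitals mark 3 motifs, each searched on both strands. The first is the E-box CANNTG, which basic helix-loop-helix factors such as the MyoD family bind. The second is the MEF2 core TATTTNTA, bound by myocyte enhancer factors. The third is a MEF2-like pattern of CTA and TAG separated by any 4 bases. TATTTNTA was added after the sequences had been seen.
Pgam2, chr11:5803797-5804046, strand -: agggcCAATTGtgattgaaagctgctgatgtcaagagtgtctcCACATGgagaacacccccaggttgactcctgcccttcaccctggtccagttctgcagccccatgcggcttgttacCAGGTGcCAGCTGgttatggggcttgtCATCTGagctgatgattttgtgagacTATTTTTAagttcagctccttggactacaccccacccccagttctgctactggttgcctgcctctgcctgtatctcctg
Pgam1, chr19:41911621-41911870, strand +: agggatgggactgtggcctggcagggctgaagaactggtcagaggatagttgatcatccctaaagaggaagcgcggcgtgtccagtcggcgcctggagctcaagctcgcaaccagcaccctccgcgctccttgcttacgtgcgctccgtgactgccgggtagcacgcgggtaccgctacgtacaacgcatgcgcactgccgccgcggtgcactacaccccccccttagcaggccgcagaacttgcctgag
Eno3, chr11:70656926-70657175, strand +: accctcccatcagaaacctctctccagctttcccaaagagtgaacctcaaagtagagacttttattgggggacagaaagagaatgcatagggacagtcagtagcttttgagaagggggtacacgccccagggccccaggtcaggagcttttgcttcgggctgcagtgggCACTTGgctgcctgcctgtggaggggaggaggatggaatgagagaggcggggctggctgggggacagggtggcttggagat
Pygm, chr19:6384158-6384407, strand +: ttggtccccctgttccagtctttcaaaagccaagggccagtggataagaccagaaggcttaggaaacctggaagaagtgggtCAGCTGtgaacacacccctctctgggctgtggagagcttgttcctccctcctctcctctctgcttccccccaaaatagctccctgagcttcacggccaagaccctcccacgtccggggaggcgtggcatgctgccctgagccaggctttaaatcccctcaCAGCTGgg
Ldhb, chr6:142507958-142508207, strand -: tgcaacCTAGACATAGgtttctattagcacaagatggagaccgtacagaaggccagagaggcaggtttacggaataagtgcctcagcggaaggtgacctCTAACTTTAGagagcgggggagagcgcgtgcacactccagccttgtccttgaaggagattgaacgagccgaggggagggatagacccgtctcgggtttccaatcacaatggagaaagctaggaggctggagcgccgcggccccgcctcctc
The Pgam2 window holds 5 E-boxes and 1 MEF2 core, which starts 79 bases before the start site. The Pgam1 window holds none of the motifs. This contrast is not general, since Pfkm has 4 windows with 0 to 3 E-boxes and no MEF2 motif, Pfkl has 3 E-boxes and Eno1 has 2 in 1 of its 3 windows. Eno3 has 1 E-box and Pygm has 2, and neither has a MEF2 motif. The Ldhb window has no E-box but holds the MEF2-like pattern at 2 places, the nearer of which starts 151 bases before the start site. At both places G or C is among the 4 middle bases.

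Across all members, 31 of 33 matched the RefSeq table, with 48 windows in all, and Slc2a3 and Slc2a4 did not. An E-box was in a window of 4 of the 4 muscle isoforms matched, of 3 of the 5 muscle-rich genes and of 12 of the 22 general isoforms matched, where 69.3% of the 27025 genes in the table have 1 in any of their windows. The MEF2 core was found for 1 member (Pgam2), where 6.31% of all genes have it, and the MEF2-like pattern for 1 member (Ldhb), where 3.70% have it. These matches describe the letters of the windows and do not show binding.

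**Figure D2:**
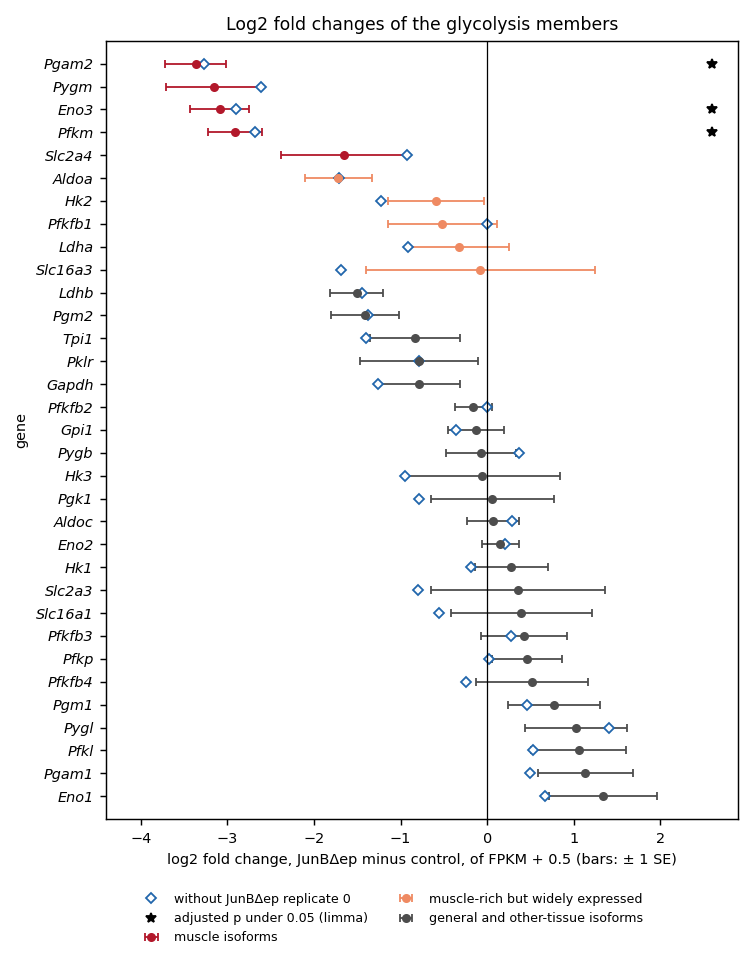
Log2 fold change of FPKM + 0.5, JunBΔep minus control, of the 33 members (filled points, bars of 1 SE either side, coloured by class), the same without the library labelled JunBΔep 0 (open diamonds), and stars for an adjusted p below 0.05. Stars stand at Pgam2, Eno3 and Pfkm, and several general isoforms, such as Pgk1, Slc16a1 and Slc2a3, have their diamond on the other side of 0.

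None of the muscle-rich but widely expressed genes passed the test, and 1 had an unadjusted p below 0.05 in limma (Aldoa, lower), where 6.13% of all genes were lower at that level. Aldoa, the aldolase that splits fructose 1,6-bisphosphate, was the most abundant member by the mean of each group, although Ldha exceeded it in the library labelled JunBΔep 0. Aldoa stood at 3014, 3842 and 2897 FPKM in control skin and 956.5, 664.8 and 1469 FPKM in JunBΔep skin. It was the only gene of this class whose groups did not overlap (log2 fold change -1.72, SE 0.39, adjusted p = 0.163), and it has 5 near copies elsewhere in mm9, so its reads may be shared. Ldha, the lactate dehydrogenase subunit that favours lactate formation, stood at 685.0, 763.1 and 592.6 FPKM in control skin and at 1224, 250.2 and 514.1 FPKM in JunBΔep skin. The library labelled JunBΔep 0 lay above all controls and the other JunBΔep mice below them, which gave -0.32 with it and -0.91 without it, and 7 near copies make the level uncertain. Slc16a3, which encodes the lactate exporter MCT4, showed the same split more widely, at 16.3, 14.2 and 11.8 FPKM in control skin against 127.5, 3.32 and 4.72 FPKM. Its log2 fold change was -0.08 over all mice and -1.69 without the library labelled JunBΔep 0 (adjusted p = 0.0589). Hk2, the insulin-responsive hexokinase of muscle and fat, measured 24.1, 20.9 and 24.5 FPKM in control skin and 37.4, 7.66 and 11.9 FPKM in JunBΔep skin, and moved from -0.59 to -1.23 in the same way. Pfkfb1, a bifunctional enzyme that sets the level of the phosphofructokinase activator fructose 2,6-bisphosphate in liver and muscle, ranged over 6.71 to 14.0 FPKM in control skin and 2.85 to 16.6 FPKM in JunBΔep skin.

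The general isoforms of phosphoglycerate mutase, enolase and phosphofructokinase had positive log2 fold changes, none of them past the test. Of all 23 general isoforms, none was called in either direction by limma, and at an unadjusted p below 0.05 there were 2 lower and 0 higher, where all genes gave 6.13% and 1.43%. Pgam1, the general phosphoglycerate mutase, was the only member that was higher in every JunBΔep mouse, at 476.5, 118.2 and 132.4 FPKM against 101.7, 76.2 and 90.9 FPKM in control skin. The excess was mainly in the library labelled JunBΔep 0, and the difference of 1.13 (SE 0.55) did not pass the test (adjusted p = 0.720) and was 0.49 without that library. Eno1, the general enolase, stood at 99.4, 60.7 and 78.4 FPKM in control skin and at 499.3, 88.3 and 175.3 FPKM in JunBΔep skin, of which JunBΔep 1 lay inside the control range (log2 fold change 1.34, SE 0.62, adjusted p = 0.712, and 0.67 without the library labelled JunBΔep 0). Pfkl, the liver-type phosphofructokinase subunit, measured 20.9, 15.5 and 15.5 FPKM against 76.2, 15.8 and 38.9 FPKM (log2 fold change 1.06, SE 0.55, adjusted p = 0.722, and 0.52 without that library). Pfkp, the platelet-type subunit, ranged over 23.5 to 33.4 FPKM in control skin and 25.3 to 71.9 FPKM in JunBΔep skin, and its log2 fold change was 0.46 with and 0.02 without the library labelled JunBΔep 0. Near copies of Pgam1 (3, the closest with 99.9% identity) and of Eno1 (6, the closest with 99.6%) make their levels uncertain, and Pfkl and Pfkp have none.

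Among enzymes that have 1 main gene in most tissues, Gpi1 (glucose 6-phosphate isomerase) ranged over 137.6 to 151.0 FPKM in control skin and 79.5 to 182.4 FPKM in JunBΔep skin. Tpi1 (triose phosphate isomerase) had 424.9 to 567.8 FPKM against 147.5 to 600.7 FPKM, Gapdh (glyceraldehyde 3-phosphate dehydrogenase) 671.1 to 847.1 FPKM against 230.2 to 817.2 FPKM, and Pgk1 (phosphoglycerate kinase) 195.8 to 234.3 FPKM against 109.8 to 727.0 FPKM. In each of these 4 the library labelled JunBΔep 0 was the highest of the mutants and JunBΔep 1 the lowest, below every control. Without that library the log2 fold changes of Tpi1, Gapdh and Pgk1 were -1.40, -1.26 and -0.79, and none was called. Gapdh has 122 near copies in mm9, Tpi1 and Pgk1 2 each and Gpi1 1, so the counting of their reads is uncertain.

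Among the 23 general members, 2 had every JunBΔep mouse below every control, neither past the test, which is close to the 9.16% of all genes that did so. Ldhb, the lactate dehydrogenase subunit of heart and other oxidative tissue, stood at 111.8, 193.2 and 108.8 FPKM in control skin and at 42.3, 38.3 and 61.8 FPKM in JunBΔep skin (log2 fold change -1.51, SE 0.30, adjusted p = 0.111). Its value without the library labelled JunBΔep 0 was -1.44. Ldhb has 1 near copy elsewhere in mm9 (97.9% identity), so its reads may be shared. Pgm2, a phosphoglucomutase that links glycogen to glucose 6-phosphate, measured 86.7, 110.6 and 79.2 FPKM against 32.6, 20.3 and 59.3 FPKM (log2 fold change -1.41, SE 0.39, adjusted p = 0.319). By the gene models on mm9 this symbol belongs to the gene on chromosome 4, which later RefSeq releases name Pgm1. The gene called Pgm1 here, on chromosome 5, ranged over 3.77 to 11.9 FPKM in control skin and 5.99 to 16.7 FPKM in JunBΔep skin.

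The hexokinases Hk1 and Hk3, the transporters Slc2a3 and Slc16a1 and the regulatory enzyme Pfkfb4 were highest in the library labelled JunBΔep 0. Hk1, the general hexokinase, had 47.7 FPKM there, 15.3 and 21.0 FPKM in the other JunBΔep mice and 18.6 to 24.3 FPKM in control skin. Hk3, a hexokinase of leucocytes, had 7.51 FPKM there and 0.424 and 1.15 FPKM in the other JunBΔep mice, and 4.61, 1.12 and 1.16 FPKM in control skin. Slc2a3, which encodes the high-affinity glucose transporter GLUT3, had 14.1 FPKM there against 0.759 to 3.48 FPKM elsewhere. Slc16a1, which encodes the lactate transporter MCT1, had 48.7 FPKM there against 4.96 to 12.7 FPKM elsewhere, and Pfkfb4 29.5 FPKM against 5.46 to 8.39 FPKM. The leucocyte markers were also highest in that library, and their part in these values was not tested. Without it the log2 fold changes of Slc2a3, Slc16a1 and Pfkfb4 were -0.80, -0.55 and -0.24. The median without it was -0.18 over the 23 general isoforms, -2.68 over the 5 muscle isoforms, -1.23 over the 5 muscle-rich genes and 0.03 over all genes. Of the general isoforms, 10 of 23 then had a positive value.

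The other regulatory and tissue forms showed smaller or single-mouse differences. Pfkfb3, the inducible member of its family, ranged over 13.3 to 26.0 FPKM in control skin and 12.9 to 43.7 FPKM in JunBΔep skin, and Pfkfb2 over 8.97 to 10.1 FPKM and 6.56 to 10.3 FPKM. Pygl, the liver glycogen phosphorylase, stood at 86.6 FPKM in JunBΔep 2 and at 12.98 to 21.9 FPKM in every other mouse. Pygb, the brain form, ranged over 20.1 to 25.9 FPKM and 11.1 to 33.7 FPKM. Aldoc, the brain aldolase, ranged over 8.66 to 12.4 FPKM and 7.62 to 15.7 FPKM, and Eno2, the neuronal enolase, over 1.81 to 2.13 FPKM and 2.06 to 2.77 FPKM. Pklr, the pyruvate kinase of liver and red cells, measured 2.28 FPKM in control 0 and at most 0.0179 FPKM in every other mouse. Control 0 also had the highest sums of the liver and the erythroid markers, and their part in the Pklr value was not tested.

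Because both isoforms of a step were measured in the same library, their make-up does not depend on how the libraries were scaled. Pfkm made up 84.4% to 89.6% of the summed FPKM of the 3 phosphofructokinase genes in controls and 17.5%, 47.8% and 49.3% in JunBΔep 0, 1 and 2. Pgam2 went from 82.0% to 91.1% of phosphoglycerate mutase FPKM in control skin to 8.62%, 25.0% and 37.0%. For Eno3 the share of enolase FPKM was 88.3% to 94.5% in controls and 13.6%, 47.5% and 47.8% in JunBΔep mice, and for Pygm that of phosphorylase FPKM was 92.1% to 93.5% and 45.7%, 52.0% and 51.8%. In these 4 families the shares did not overlap between groups. For the fifth muscle isoform, Slc2a4, the share of the summed Slc2a3 and Slc2a4 FPKM did overlap. It was 94.0% to 98.0% in controls and 30.2%, 95.4% and 98.4% in JunBΔep 0, 1 and 2. In phosphoglycerate mutase and in enolase the general form held the larger share in every JunBΔep mouse (Pgam1 63.0% to 91.4%, Eno1 51.3% to 86.1%). The ratio of the mean family total in controls to that in JunBΔep mice was smaller than that of the muscle form alone. It was 2.84-fold for phosphofructokinase (376.8 ± 36.7 FPKM in control skin against 132.7 ± 50.8 FPKM in JunBΔep skin, SD, n = 3), 2.63-fold for enolase and 3.99-fold for glycogen phosphorylase, and without the library labelled JunBΔep 0 it was 3.45-fold, 3.74-fold and 3.09-fold. The phosphoglycerate mutase total overlapped between groups, at 566.5, 858.1 and 516.9 FPKM against 521.4, 157.6 and 210.1 FPKM, and its ratio went from 2.18-fold to 3.52-fold without that library. Aldoa held 98.56% to 99.75% of aldolase FPKM in every mouse. The hexokinase total was 46.0 ± 6.22 FPKM in control skin (SD, n = 3) and 92.6, 23.3 and 34.1 FPKM in JunBΔep 0, 1 and 2, so that its mean in JunBΔep mice was above that of controls with the library labelled JunBΔep 0 (50.01 FPKM) and below it without (28.7 FPKM).

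**Figure D3:**
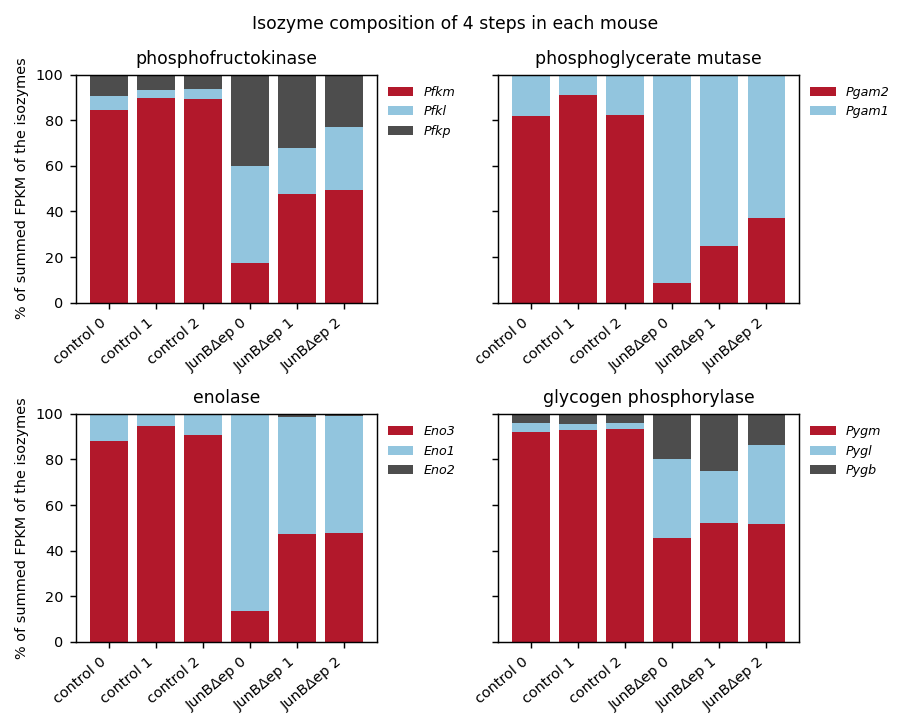
Share of the summed FPKM of the isozymes of 4 steps held by each isoform (stacked bars, in % on an axis from 0 to 100) in each of the 6 mice. The muscle isoform, in red, takes 82.0% to 94.5% in the control bars and 8.62% to 52.0% in the JunBΔep bars.

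For each of 9 pairs, the log2 ratio of a muscle or muscle-rich isoform to a general or other-tissue one was taken within each mouse. Some of the latter, such as Aldoc, Ldhb and Pygb, are forms of other tissues rather than general ones. The ratios were tested by exact two-sided permutation tests over mice, which cannot give a p under 0.1 with 3 mice against 3. For 6 pairs the ratio was lower in every JunBΔep mouse than in every control. The difference in log2 ratio was -4.50 for Pgam2/Pgam1, -4.43 for Eno3/Eno1, -3.97 for Pfkm/Pfkl, -3.08 for Pygm/Pygb, -1.79 for Aldoa/Aldoc and -0.87 for Hk2/Hk1, each with an exact p of 0.1, which was 0.129 after Benjamini-Hochberg adjustment over the 9 pairs. Without the library labelled JunBΔep 0 these became -3.76, -3.58, -3.20, -2.98, -1.99 and -1.04. Ldha/Ldhb had the opposite sign, with log2 ratios of 2.61, 1.98 and 2.44 in controls and 4.84, 2.69 and 3.05 in JunBΔep mice (exact p = 0.1, 0.129 adjusted), and its difference of 1.18 was 0.53 without the library labelled JunBΔep 0. The ratios of the transporters overlapped. Slc2a4/Slc2a3 had a difference of -2.005 (exact p = 0.6) that shrank to -0.12 without the library labelled JunBΔep 0, and Slc16a3/Slc16a1 a difference of -0.47 (exact p = 0.4) that was -1.14 without it, where JunBΔep 1 and 2 (-0.51 and -0.71) lay below every control (0.35 to 0.65). The coding sequences of the pairs are alike only in part, from 58.3% of aligned bases for Slc16a3/Slc16a1 to 77.3% for Pygm/Pygb, with 74.8% for Pgam2/Pgam1 and 76.7% for Eno3/Eno1.

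**Figure D4:**
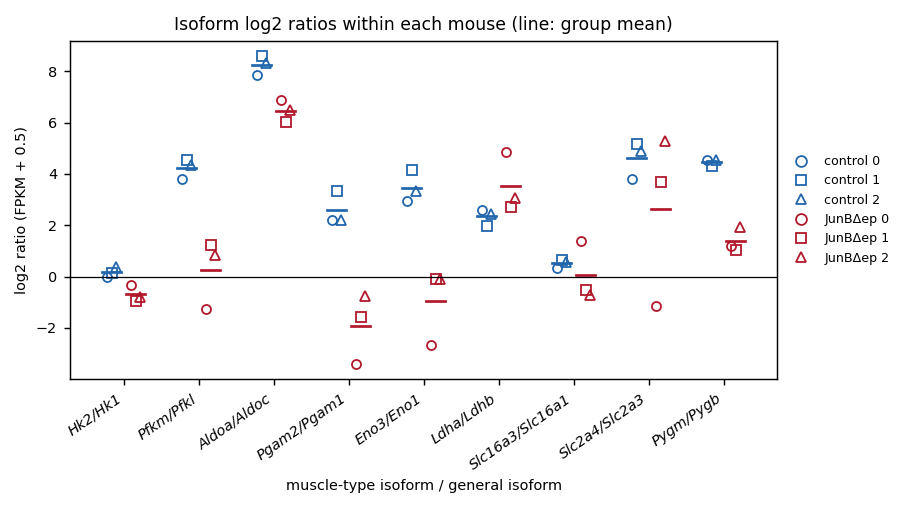
Log2 ratio of FPKM + 0.5 between a muscle or muscle-rich isoform and a general or other-tissue one, for 9 pairs in each mouse. Controls are blue and JunBΔep mice red, with a marker shape per replicate number and lines at group means. The red points lie below the blue ones for 6 pairs, above them for Ldha/Ldhb, and overlap for the 2 transporter pairs.

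The skeletal muscle markers moved with the muscle isoforms. Of the 20 markers, 14 were called lower (1.38% of all genes) and all 20 had a negative log2 fold change, with a median of -3.09, and their summed FPKM was 8.07-fold higher in controls. Without control 0, 1 or 2 or JunBΔep 1 no marker was called, and without the library labelled JunBΔep 0 4 were. With the name series as a block no marker was called. Expressed per 1000 FPKM of the summed markers, Pfkm stood at 10.9, 10.5 and 12.5 in controls and at 11.6, 15.5 and 11.8 in JunBΔep mice. Pgam2 gave 16.4 to 21.9 and 13.3 to 16.6, Eno3 28.5 to 30.3 and 27.9 to 33.5, and Pygm 14.6 to 18.3 and 9.56 to 22.1. On that scale the groups overlapped for each of these 4 genes. They did not for Slc2a4, at 1.75 to 2.03 in controls and 2.25, 6.48 and 9.26 in JunBΔep mice. Since the marker sum is the divisor, any gene whose level is less reduced than that sum is higher on this scale in JunBΔep mice. The other 7 members put on it (Aldoa, Hk2, Ldha, Slc16a3, Pfkfb1, Ldhb and Pgm2) were all higher there with no overlap, Aldoa for one at 107.6 to 112.0 in controls and 251.1 to 353.6 in JunBΔep mice.

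Outside the list, 2 of the genes of glycogen handling were called lower as well. Of 16 further genes of glycogen synthesis and breakdown, all tested, 13 had a negative value, with a median of -1.33. By limma 2 were called lower and none higher, and at an unadjusted p below 0.05 there were 9 lower and 1 higher. Over all genes tested the shares were 1.38% called lower, and 6.13% lower and 1.43% higher at an unadjusted p below 0.05. The called genes were Ppp1r3a, the muscle subunit that brings protein phosphatase 1 to glycogen, at 8.43, 6.86 and 8.68 FPKM in control skin and 0.640, 0.558 and 1.30 FPKM in JunBΔep skin (log2 fold change -2.71, adjusted p = 0.0187), and Ppp1r3c, a glycogen-targeting subunit of wider expression (-2.68, adjusted p = 0.0425). Phka1 and Phkg1, the muscle alpha and gamma subunits of the kinase that activates phosphorylase, had -2.04 (adjusted p = 0.0540) and -2.74 (adjusted p = 0.1003), while their liver counterparts Phka2 and Phkg2 had 0.03 and 0.18. Other genes of the list had negative values too, among them Phkb, Gyg and Ugp2 at -1.46, -1.64 and -1.195 (adjusted p = 0.0864, 0.303 and 0.0843). Gys1, the muscle glycogen synthase, measured 61.1, 59.0 and 59.9 FPKM in control skin and 21.0, 13.8 and 28.8 FPKM in JunBΔep skin (log2 fold change -1.54, adjusted p = 0.0728). Ppp1r3b, the liver glycogen-targeting subunit, had 1.46 (adjusted p = 0.652). Without the library labelled JunBΔep 0, Ppp1r3a was the only one of the 16 called (adjusted p = 0.0427), without JunBΔep 2 there were 7, and without control 0, 1 or 2 or JunBΔep 1 there were none. With the name series as a block none of the 16 was called.

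**Figure D5:**
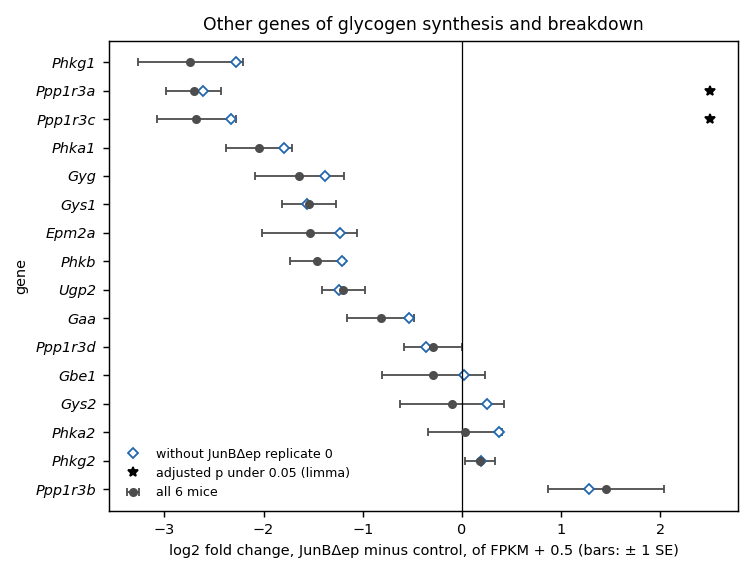
Log2 fold change of FPKM + 0.5, JunBΔep minus control, of 16 other genes of glycogen synthesis and breakdown (points, bars of 1 SE either side), the same without the library labelled JunBΔep 0 (open diamonds), and stars for an adjusted p below 0.05. Stars stand at Ppp1r3a and Ppp1r3c.

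No gene of the steps that flank the listed ones was called. Of 20 symbols for pyruvate and lactate handling, 17 were in the table and 16 tested, with none called by limma, 2 lower and 0 higher at an unadjusted p below 0.05 (6.13% and 1.43% of all genes), and a median log2 fold change of -0.31. Pkm, the pyruvate kinase of muscle and most other tissues, followed the general enzymes, at 523.5, 536.8 and 493.9 FPKM in control skin and at 1083, 217.2 and 337.8 FPKM in JunBΔep skin. Pdk2, a kinase that turns off pyruvate dehydrogenase, had -2.08 (adjusted p = 0.390) and -1.40 without the library labelled JunBΔep 0. Of 16 genes of sugar entry and side isozymes, 12 were tested, with none called by limma, 3 lower and 0 higher at an unadjusted p below 0.05 (against the same shares), and a median of -0.41. Slc2a1, which encodes the general glucose transporter GLUT1, measured 26.4, 21.7 and 14.9 FPKM in control skin, 171.4 FPKM in the library labelled JunBΔep 0 and 12.98 and 18.4 FPKM in the other JunBΔep mice. Fbp2, the muscle fructose 1,6-bisphosphatase of gluconeogenesis, stood at 14.3, 44.1 and 18.0 FPKM against 1.90, 4.63 and 11.9 FPKM, with no overlap (log2 fold change -2.11, adjusted p = 0.461). Over the 3 lists of other pathway genes, 44 genes were tested and 2 called, both of them glycogen genes.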

How the data were processed

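Poly(A) RNA of whole skin of 3 control and 3 JunBΔep mice was sequenced with a strand-specific kit. The authors aligned the reads to mm9 with TopHat2 2.0.10 (Bowtie 1.0.0 and SAMtools 0.1.19 are also in the submitters' processing notes) and deposited FPKM values per gene and mouse. Those notes name Cufflinks without saying what it did, and total reads, which set the counting error, are unknown. The study tested counts with DESeq2, and those counts were not used here. The deposited values, as log2(FPKM + 0.5), entered limma 3.58.1 (R 4.3.3, intensity trend, two-sided, no block, Benjamini-Hochberg) for the 17021 genes whose mean reached 0.1 FPKM. A pseudocount understates the change of low genes. The procedure was also run on simulated data, and no result of that run is given or relied on here.

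The members, classes and lists were chosen with earlier results of these data known. All 33 members are named, with the called genes of the other pathway lists, some further isozymes of the same steps and the defining muscle markers. Pdk2, Fbp2, Gys1, Phka1, Phka2, Phkb, Phkg1, Phkg2, Gyg, Ugp2 and Ppp1r3b were added after their values were seen. Pkm2, Brp44, Brp44l and Tigar were not found by symbol, and 1 further gene first put in the glycogen list is not reported here. Near copies were sought with minimap2 2.31 on mm9, promoter windows are RefSeq's (GRCm38.p6), and coding sequences (GENCODE vM1) were aligned with Biopython 1.88. Alternatives were pseudocounts of 0.1 and 1, no filter or a minimum mean of 1 FPKM, median-ratio scaling, sums set to 1000000, quantile normalization, robust or untrended limma, blocks on replicate number or name series, and each mouse left out.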

Additional observations from a re-analysis of the deposited data

How the results depend on the processing

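Across the pseudocounts, filters, scalings and limma settings, Pfkm, Pgam2 and Eno3 kept their calls, with log2 fold changes between -3.38 and -2.84 and adjusted p of 0.0153 to 0.0341. With the replicate block no gene and no member was called (0 of each), as with the block on name series (0 of each), and 0 glycogen genes and 0 skeletal muscle markers were called in either. Mice with the same replicate number did not deviate together (correlations of 0.12, -0.23 and -0.43), so the numbers do not pair them. Leaving out 1 mouse gave 0 to 254 called genes, 0 to 4 called members, 0 to 7 glycogen genes and 0 to 14 muscle markers. Without a filter 1 glycogen gene and 5 markers were called, and with sums set to 1000000 1 glycogen gene. With the muscle-rich genes added, the muscle class had a median of -1.69. Signs of uncalled members turned for Hk3 (0.00822 at a pseudocount of 1, 0.00456 after quantile normalization, 0.53 with the series block) and, with the series block, for Gpi1 (0.00461), Ldha (0.0176) and Slc16a3 (0.79). When 1 mouse was left out, uncalled values lay on both sides of 0 for Hk1 (-0.18 to 0.62), Hk3 (-0.95 to 0.60), Gpi1 (-0.37 to 0.23), Pfkfb1 (-1.18 to 0.00143), Pfkfb4 (-0.24 to 0.92), Aldoc (-0.21 to 0.29), Pgk1 (-0.79 to 0.57), Ldha (-0.91 to 0.23), Slc16a1 (-0.55 to 1.03), Slc16a3 (-1.69 to 0.84), Slc2a3 (-0.80 to 0.97) and Pygb (-0.41 to 0.37). The cause was not tested.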
